A study of Mus musculus with 4 samples.

Results

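Among the H3K9ac peaks that differed between chronic intermittent hypoxia (CIH) and room air (RA) in mouse aortic macrophages, 1243 were over 1000 and up to 1500 bp wide and shared no edge with another differential peak. They are called standalone peaks here and made up 5.94% of the 20943 H3K9ac peaks. The rule that chose them used only width and position in the deposited list, but it was set with earlier results of these data known. Of them, 1013 were higher in CIH, a share of 81.5% with an exact 95% interval of 79.2 to 83.6, and 230 were higher in RA, a share of 18.5% (16.4 to 20.8). Over all H3K9ac peaks, 45.4% were higher in CIH and 54.6% higher in RA, so the majority direction in this width class was the minority direction of the whole list. The intervals cover counting only, and neighbouring peaks are not independent.

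The cells came from C57BL/6J mice, with neither age nor sex given in the labels. CIH mice spent 20 weeks in chambers where 90 s of 6.1% O2 alternated with 90 s of 21% O2 throughout the light phase, and RA controls were kept in matching cages at 21% O2. Aortas were dissociated, and cells carrying CD11b, a surface integrin of myeloid cells, were taken with magnetic beads, so the material was a bead-selected fraction and other CD11b+ cells may have been present. H3K9ac and H3K27me3 were profiled by ChIP-seq, with 1 library per mark and exposure and 4 libraries in all. The study gives an n per condition for a set of panels that includes the ChIP-seq, but how many mice each library combined was not stated in the sources used here. With 1 library per exposure there is no replicate check, no test between exposures can be made, and the directions compare these libraries. The study describes a larger sequence yield for the CIH H3K9ac library than for the RA library, and the part of this in the directions was not tested.

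Acetylation of lysine 9 on histone H3 is placed by acetyltransferases such as those of the GCN5/PCAF family and removed by histone deacetylases. It marks nucleosomes around the starts of active genes and at some enhancers, and its level at a promoter generally goes along with transcription of the gene. H3K27me3, placed by Polycomb repressive complex 2, marks silent genes, and a lysine that carries it cannot be acetylated at the same time. Macrophages of the vessel wall change many promoters quickly when they are stimulated, among them those of immediate early genes.

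The sequence of the start of a peak was held for 93 of the 1243 peaks (56 with more signal in CIH, 37 in RA), from the study's table of selected peaks. In 21 of the 93 a RefSeq gene start could be placed by matching promoter sequence to the bases of the peak. Of these peaks 11 had more signal in CIH and 10 in RA. The starts of Mcm8, Ap5s1, Aar2, Aco1 and AW011738 fell beyond the 399 bases held. Inside those bases a start was found in 16 of the 93 peaks (17.2%, 10.2 to 26.4), 10 of 56 for CIH and 6 of 37 for RA. Among 382 other peaks of the table it was found in 62 (16.2%, 12.7 to 20.3), so the share was about the same outside the class. The bases that end at a placed start are shown for 5 of the 21 peaks, as promoter sequence that lies inside a peak. Where within a peak the signal lay is not known from the list. The bases shown are all on the plus strand of mm9, 5′ to 3′, with matches to the motifs searched in capitals. Srxn1 encodes sulfiredoxin, which repairs over-oxidised peroxiredoxins, and its 200 bases at chr2:151931060-151931259 hold 2 AP-1 matches (TGANTCA) and 1 GC box match. Rraga encodes the RagA GTPase, which signals amino acid supply to mTORC1, and its 120 bases at chr4:86221457-86221576 hold 1 ETS match (CCGGAAG). Srsf4 encodes a serine and arginine rich splicing factor, and its 100 bases at chr4:131429452-131429551 hold 1 GC box match (GGGCGG on the other strand). The peaks over these 3 starts were higher in CIH.
Srxn1: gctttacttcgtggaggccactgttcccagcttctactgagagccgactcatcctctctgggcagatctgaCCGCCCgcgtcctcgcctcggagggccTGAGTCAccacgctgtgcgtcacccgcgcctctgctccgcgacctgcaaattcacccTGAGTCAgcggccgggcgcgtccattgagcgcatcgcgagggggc
Rraga: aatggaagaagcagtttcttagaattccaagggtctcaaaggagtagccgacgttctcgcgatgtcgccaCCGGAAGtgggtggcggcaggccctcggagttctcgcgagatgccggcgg
Srsf4: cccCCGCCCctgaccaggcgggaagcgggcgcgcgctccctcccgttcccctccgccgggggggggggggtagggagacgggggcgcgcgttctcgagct

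Both following promoters lie in peaks that were higher in RA. Mga encodes a MAX partner that represses genes, and its 120 bases at chr2:119722844-119722963 hold 1 match to the hypoxia response core (ACGTG). Prnp encodes the prion protein, and its 120 bases at chr2:131735544-131735663 hold 1 match each to the AP-1 site, the CCAAT box and the GC box. A match is a run of letters and not a site shown to be bound.
Mga: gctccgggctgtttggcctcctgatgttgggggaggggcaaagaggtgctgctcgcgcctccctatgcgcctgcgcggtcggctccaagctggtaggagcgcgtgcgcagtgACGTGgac
Prnp: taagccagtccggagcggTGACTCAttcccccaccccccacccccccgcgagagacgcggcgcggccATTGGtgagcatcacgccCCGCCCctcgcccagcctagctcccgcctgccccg

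Base composition ranged widely in both directions, from a GC content of 34.3% (Car13) to 74.2% (Pnrc1) in CIH and from 36.6% (Fam198b) to 74.1% (Ncoa3) in RA. A CG-rich and a CG-free stretch of 100 bases show that range, with every CG in capitals, and do not stand for the directions of their peaks. The window at chr4:33335150-33335249 lies in the peak paired with Pnrc1, a nuclear receptor coactivator gene, which was higher in CIH. It has a GC content of 80.0% and 16 CG. The window at chr3:18523451-18523550 opens the peak paired with Armc1, an armadillo repeat protein gene, which was higher in RA. It has a GC content of 43.0% and no CG.
Pnrc1 window: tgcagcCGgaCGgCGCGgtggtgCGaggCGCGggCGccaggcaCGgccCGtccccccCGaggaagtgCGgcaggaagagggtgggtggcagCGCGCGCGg
Armc1 window: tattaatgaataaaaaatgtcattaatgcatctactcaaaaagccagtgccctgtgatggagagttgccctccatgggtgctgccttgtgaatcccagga

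Every step of 50 bp within the class held more peaks higher in CIH than in RA. At 1050 bp there were 143 peaks higher in CIH against 47 higher in RA, and at 1500 bp there were 49 and 10. The share higher in CIH was lowest at 1200 bp, with 103 of 137 peaks (75.2%), and highest at 1300 bp, with 116 of 128 (90.6%). Between these steps the share moved up and down, with no steady rise over the class. The median width was 1200 bp in both directions, and the peaks covered 1529 kb in all, of which 279 kb lay in peaks higher in RA.

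**Figure D1:**
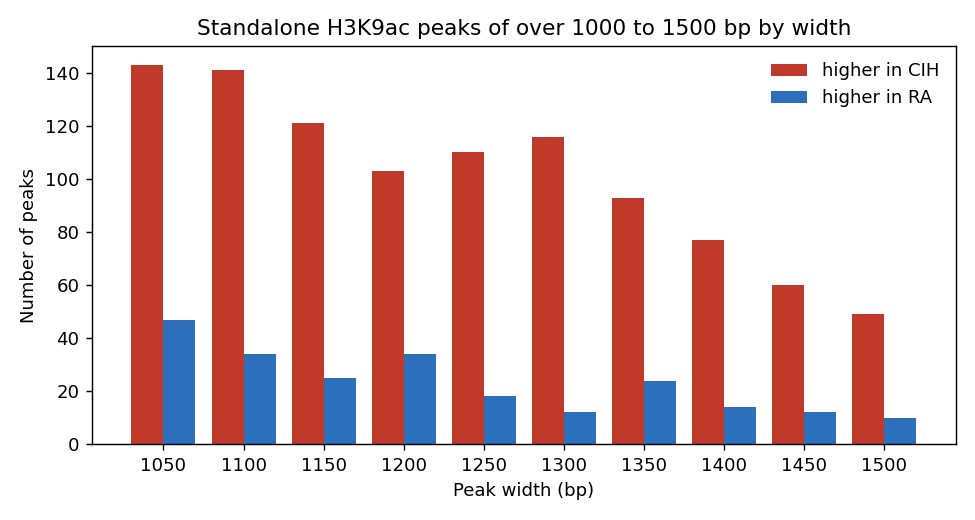
Number of standalone H3K9ac peaks (y axis) at each width in bp (x axis), by direction, where red is higher in CIH and blue is higher in RA. Red bars are taller at all 10 widths, from 143 against 47 peaks at 1050 bp to 49 against 10 at 1500 bp.

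The class stood between its neighbours in width. Of the 3985 standalone peaks over 500 and up to 1000 bp, 62.2% (60.7 to 63.7) were higher in CIH, and of the 507 wider than 1500 bp, 91.5% (88.7 to 93.8). The limits of the class did not coincide with a jump at the lower edge, since the peaks of 1000 bp, just outside, were higher in CIH in 173 of 233 cases (74.2%) and those of 1050 bp, just inside, in 143 of 190 (75.3%). At the upper edge the share was 83.1% of 59 peaks at 1500 bp and 92.9% of 56 peaks at 1550 bp, with overlapping intervals of 71.0 to 91.6 and 82.7 to 98.0. Of the 467 peaks of the same width that touched another, 378 were higher in CIH (80.9%, 77.1 to 84.4), 0.554 percentage points below the standalone share.

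**Figure D2:**
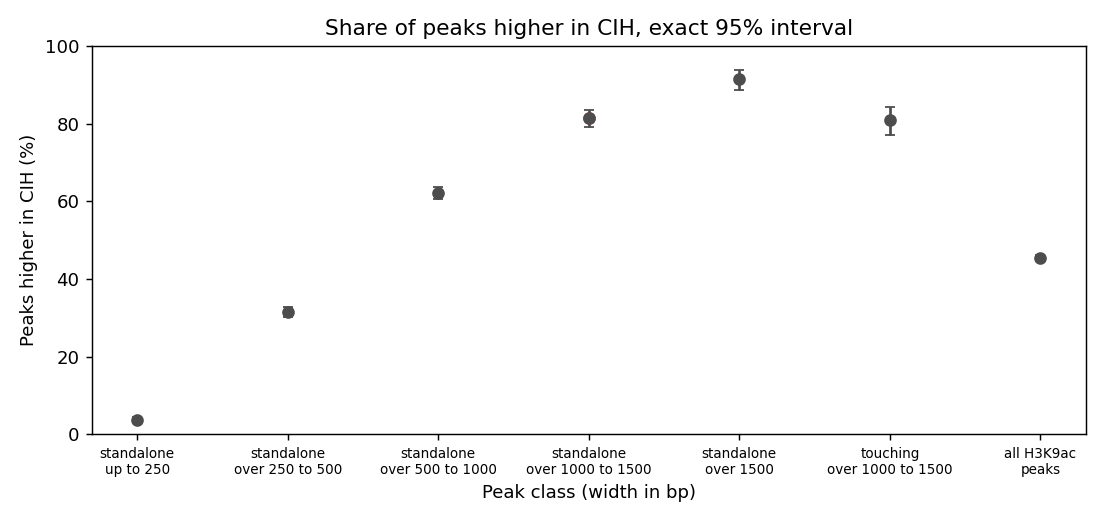
Share of peaks higher in CIH in percent (y axis) for standalone peaks in 5 width classes, touching peaks over 1000 and up to 1500 bp, and all H3K9ac peaks (x axis), with exact 95% intervals as bars. The standalone peaks of that width lie at 81.5%, next to the touching peaks of the same width at 80.9% and below the standalone peaks wider than 1500 bp at 91.5%.

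The excess of peaks higher in CIH was present on all 19 autosomes. The share was lowest on chromosome 2, with 57 of 84 peaks higher in CIH (67.9%, 56.8 to 77.6), and highest on chromosome 9, with 70 of 74 (94.6%, 86.7 to 98.5), around a median of 81.1% per autosome. These extremes were not particular to the class. Among the other standalone peaks chromosome 2 was also the lowest autosome (31.5% higher in CIH) and chromosome 9 the highest (42.9%). Chromosome 2 held 27 of the 230 peaks higher in RA, more than any other chromosome, and chromosome 11 followed with 24. On each autosome the share exceeded that of the other standalone peaks there, by 36.4 to 54.1 percentage points with a median of 41.6. Those other peaks are mostly narrower, and over all chromosomes 3.58% of those up to 250 bp were higher in CIH. Of those over 250 and up to 500 bp, 31.5% were. The gap is therefore not a comparison at equal width. Chromosome 11 had the most peaks of the class, 111, which were 7.76% of its H3K9ac peaks, while on chromosome 16 the class made up 4.33%. Chromosome X held 15 peaks higher in CIH plus 3 higher in RA, and chromosome Y held 1, higher in CIH.

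**Figure D3:**
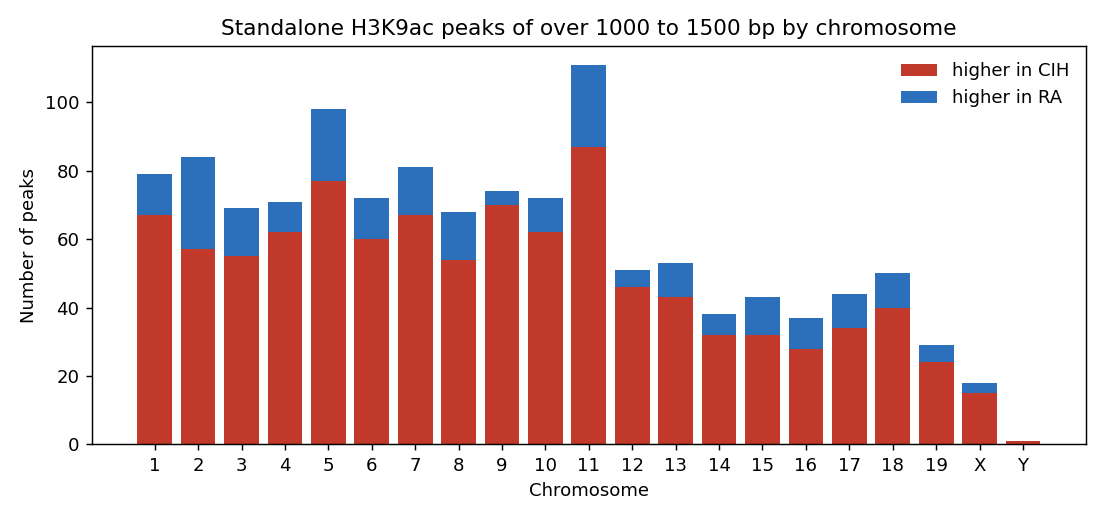
Number of standalone H3K9ac peaks over 1000 and up to 1500 bp (y axis) on each chromosome (x axis), stacked with red for higher in CIH and blue for higher in RA. Chromosome 11 has the most peaks, 111, and chromosome 2 has the most that were higher in RA, 27 of 84.

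Windows of 1 Mb rarely held more than a few of these peaks. Of the 831 windows with any, 555 had exactly 1, and no window had more than 5. A window of 5 on chromosome 5, from 122 to 123 Mb, was higher in CIH throughout. On chromosome 2, from 131 to 132 Mb, 3 of 5 peaks were higher in RA, among them the peaks paired with Smox, Ap5s1 and Erv3. Peaks higher in RA were found in 203 windows, without a peak of the other direction in 100 of them, and 24 windows held at least 2.

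The distance to the nearest other differential H3K9ac peak had a median of 28100 bp and ranged from 50 to 2304950 bp. The median was 29150 bp for peaks higher in CIH and 24150 bp for peaks higher in RA, and 35600 bp for the other standalone peaks. Within 10 kb of another differential peak lay 310 peaks (24.9%), and 175 (14.1%) had none within 100 kb. The most isolated peak higher in CIH was at chrX:50341001-50342150, and the next was at chrX:69519151-69520250, 1440000 bp from its nearest neighbour. The most isolated peak higher in RA was at chr7:76814151-76815350, 590150 bp from the next. The peak at chr3:159502551-159504000, also higher in RA and 307850 bp from the next, was paired with Wls, which escorts Wnt proteins to the cell surface, and with Rpe65, the retinoid isomerase of the eye.

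The nearest other peak had the same direction in 616 of the 1243 cases, 49.6% (46.7 to 52.4). Beside peaks higher in CIH the nearest peak was higher in CIH in 47.7% of cases, and beside peaks higher in RA it was higher in CIH in 42.2%. The share was higher at short range. Within 500 bp, 73 of 99 nearest peaks had the same direction (73.7%, 63.9 to 82.1), in 63 of 87 cases for peaks higher in CIH and in 10 of 12 for peaks higher in RA. The other standalone peaks were like this too, at 75.8%, so close neighbours of the same direction were not particular to this width. Between 500 and 2000 bp the share was 34.5% of 29 peaks (17.9 to 54.3), with 4 of 20 for CIH and 6 of 9 for RA, and from 2 kb upward it stayed between 47.4% and 48.4%.

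**Figure D4:**
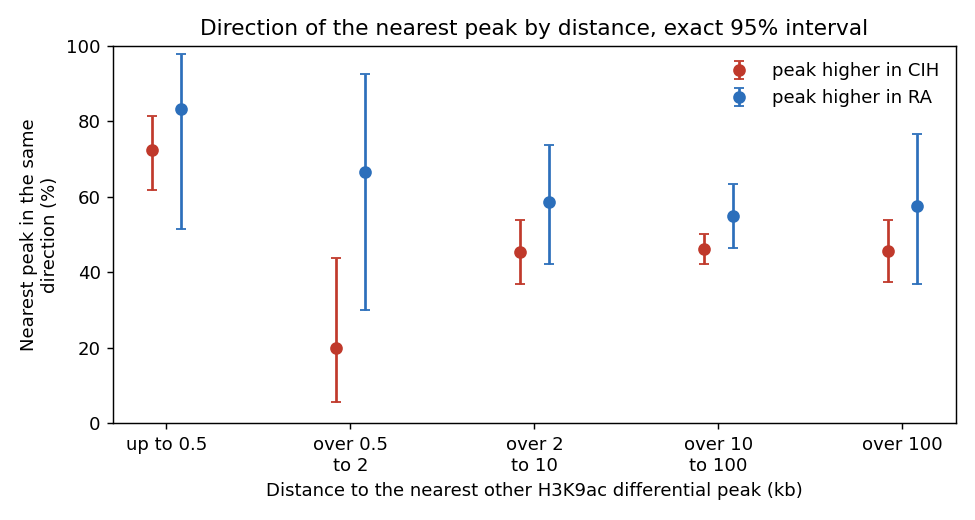
Share of peaks whose nearest other H3K9ac peak had the same direction, in percent (y axis), by distance to that peak in kb (x axis), with red for peaks higher in CIH, blue for RA and exact 95% intervals as bars. Up to 0.5 kb the shares are 72.4% for CIH and 83.3% for RA, and above 2 kb they lie between 45.4% and 58.5%.

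In 13 cases a neighbouring pair within 10 kb consisted of 2 peaks of the class. Both were higher in CIH in 9 pairs, in 4 the directions differed, and no pair was higher in RA in both. As 81.5% of the class had more signal in CIH, pairs with RA on both sides would be rare without any tie between neighbours. Whether the counts depart from that share was not tested. On chromosome 5, the peaks at chr5:130646601-130647700 and chr5:130647751-130648800 lay 50 bp apart and were both higher in CIH. On chromosome 11, the peak at chr11:85123501-85124650 was higher in CIH and the one at chr11:85124751-85125800, 100 bp further on, was higher in RA.

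Gene names came from the study's table, of which the rows held here pair genes with 93 of these peaks and name 128 genes. In the range of peak names that the rows cover, the table held 56 of the 224 peaks higher in CIH (25.0%) and 37 of the 56 higher in RA (66.1%), against 8.85% of all H3K9ac peaks. The table was made from peaks with high read numbers in each exposure, so the named peaks are not a sample of the class and their directions are not a share of it. The table names genes near a peak, which need not be the gene whose start lies under it. In 21 peaks with a placed start, 18 of the 23 genes that start there were among the names given and 5 were not. Srxn1 starts in a peak paired with Scrt2, Prnp and the Prn readthrough entry in a peak paired with Erv3, AW011738 in the peak paired with Isg15, and Gm32287 in the peak paired with Ptpn1. The gene lists used next were drawn up with earlier results of these data known, and the rows held name very different parts of them at any peak, from 0 of 10 macrophage identity genes to 19 of 26 genes of vesicle traffic. Their counts are therefore descriptions, to be set beside the directions of all 93 named peaks, 60.2% with more signal in CIH and 39.8% in RA.

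Immediate early and stress-induced regulators came first among the lists. Of 28 genes listed, 5 were paired with a peak of the class, and all 6 of their peaks were higher in CIH, beside 60.2% of all named peaks. Jun, the AP-1 subunit c-Jun, was paired with chr4:94719451-94720750. Klf4, a transcription factor of macrophage and smooth muscle state, was paired with chr4:55544351-55545750, and Nr4a3, an orphan nuclear receptor induced by many stimuli, with chr4:48055751-48057050. Id3, an inhibitor of bHLH transcription factors, was paired with chr4:135695951-135697200. Btg2, an antiproliferative gene that p53 induces, had 2 such peaks, at chr1:135974451-135975600 and chr1:135989251-135990750. From the bases held, no RefSeq start was placed in any of these 6 peaks, so they are not shown to cover the promoters of these genes.

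The peaks paired with these genes were not alone. Next to the Jun peak lay another peak higher in CIH at 150 bp, next to the Klf4 peak at 250 bp and next to the Nr4a3 peak at 850 bp. For Btg2 the nearest peaks were 150 and 4850 bp away and for Id3 4600 bp away, and these too were higher in CIH. Over the whole class, 131 of the 1013 peaks higher in CIH (12.9%, 10.9 to 15.2) had a nearest peak of the same direction within 10 kb. Among the 56 with gene names 15 did (26.8%, 15.8 to 40.3), 6 of them paired with these genes. The distances at these genes were known when this share was added. For peaks higher in RA the same counts were 40 of 230 over the class (17.4%, 12.7 to 22.9) and 9 of 37 with gene names (24.3%, 11.8 to 41.2).

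Of 21 RNA splicing and processing genes listed, 15 were named at any H3K9ac peak and 10 at a peak of the class, in 9 cases higher in CIH, beside 60.2% of all named peaks. No test of that difference was made. Among them were Srsf4, Srrm1, which couples splicing to 3′ end formation, Hnrnpu, which binds nuclear RNA and chromatin, Tut1, the terminal uridylyltransferase of U6 RNA, and Trmt6, a subunit of the tRNA m1A methyltransferase. Esf1 and Rbm48, which work in ribosomal RNA processing and minor intron splicing, Ddx20 of the SMN complex and Pnisr complete the group. Aar2, an assembly factor of the U5 particle, was the exception, with a peak at chr2:156372851-156374000 that was higher in RA and holds the Aar2 start.

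Genes of vesicle traffic and secretion were found in both directions. Of 26 listed, 8 had a peak higher in CIH and 4 a peak higher in RA, beside 60.2% and 39.8% of all named peaks. The CIH side held Rab2a, a GTPase between endoplasmic reticulum and Golgi, at chr4:8462801-8464200, with Arfgap1, Trappc3 and Scamp3 of Golgi transport, Necap2 of endocytosis, Rusc1, Ssr3 and Pdia3. The RA side held Snap23, the SNARE of exocytosis, Ap5s1, a subunit of the AP-5 adaptor, Ssr2 and Tor1a. Ssr3 and Ssr2 encode subunits of the same translocon-associated complex and were paired with peaks of opposite direction, at chr3:65238901-65240050 and chr3:88419901-88421250. The RefSeq start under the Ssr2 peak was that of Arhgef2, a microtubule-bound guanine nucleotide exchange factor.

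Among 22 protein degradation genes listed, 2 had a peak higher in CIH and 4 a peak higher in RA, against 39.8% of all named peaks in RA, a small count with no test of the difference. Psmb2, an inner ring subunit of the proteasome core, and Ube2q1, a ubiquitin conjugating enzyme, had peaks higher in CIH. Psma5, an outer ring subunit of the same core, Rnf114, a ubiquitin ligase, Gid8 of the CTLH ligase and Commd9 had peaks higher in RA. The Psmb2 peak at chr4:126354401-126355750 lay 189500 bp from any other differential peak, and the Psma5 peak at chr3:108060251-108061300 lay 500 bp from another that was also higher in RA.

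Of 25 redox and mitochondrial genes listed, 5 had a peak higher in CIH and 5 a peak higher in RA. Among those higher in CIH were the peaks of Txn1, the cytosolic thioredoxin, Ndufs5 of respiratory complex I, Aldh18a1 of proline synthesis and Mecr of mitochondrial fatty acid synthesis. Higher in RA were those of Txndc12, a thioredoxin of the endoplasmic reticulum, Slc25a12 and Slc25a25, carriers of the inner mitochondrial membrane, Aco1, the aconitase that also acts as iron regulatory protein, and Smox, spermine oxidase. The peak at chr4:108506901-108508000, higher in RA, held the starts of both Txndc12 and Btf3l4 on opposite strands. Srxn1, whose product works with peroxiredoxins, was not on the list and was found through its start in the peak at chr2:151931001-151932050, higher in CIH.

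Chromatin regulators were paired with 7 peaks, for 15 genes listed. Of these, 5 were higher in CIH and 2 in RA, beside 60.2% and 39.8% of all named peaks. Hat1, which acetylates new histone H4, Arid1a, a subunit of the BAF remodelling complex, Mef2d, a transcription factor, Prdm16 and the corepressor Rere were on the CIH side, and the coactivator Ncoa3 and Mga were on the RA side. Hat1 and Slc25a12 lie beside each other, and their peaks, chr2:71226351-71227700 higher in CIH and chr2:71205001-71206400 higher in RA, were 19950 bp apart with no other differential peak between them. A similar pair was formed around Naif1, which has 2 peaks of opposite direction 26650 bp apart, 1 shared with Slc25a25 and higher in RA and 1 shared with Fam102a and higher in CIH.

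Few genes of the remaining lists were paired with a peak of the class. Of 20 hypoxia and vasoactive genes there was 1, Eno1, the glycolytic enolase, in a peak at chr4:149655701-149657200 that was higher in CIH and holds the start of Rere. Isg15, the interferon-induced ubiquitin-like modifier, was the only 1 of 19 innate immune and interferon genes, in a peak at chr4:155576951-155578150 higher in RA. Of 20 genes of TGF-beta signalling, YAP/TAZ and matrix, Id3, the giant cadherin Fat4 and Bcar3 had peaks higher in CIH, and Postn, the matrix protein periostin, had a peak at chr3:54283701-54284750 higher in RA, 150 bp from another of that direction. Btg2 was the only 1 of 14 survival and p53 genes, and none of 14 genes of lipid and sterol handling was paired.

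The label of the cells could not be checked with these peaks. None of 10 macrophage identity genes, such as Csf1r, Spi1 and Cd68, was paired with any H3K9ac peak in the rows held, in or out of the class. Of 14 genes of other aortic wall cells, 2 were paired with an H3K9ac peak and 1, Postn, with a peak of the class. The rows cover differential peaks on part of the genome, so an absent gene says nothing of its acetylation level.

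The remaining peaks higher in RA included further genes of known role. Rnd3, an atypical small GTPase that loosens actin stress fibres, shared a peak with Gm13497 at chr2:51002751-51004200, and Gm13497 had another, also higher in RA. Gipc2, a PDZ domain adaptor, had 2, at chr3:151784651-151785700 and chr3:151827851-151829200. Atg2a, a lipid transfer protein of autophagosome growth, Fmn1, an actin nucleating formin, Dsn1 of the kinetochore and Prr5l of mTORC2 each had 1. On the CIH side, the widest peaks with a name, at 1500 bp, included those of Cdc123, Arfgap1, Scamp3, Ube2q1, Txn1, Eno1 and 1 of the Btg2 peaks. The narrowest, at 1050 bp, were those of Aldh18a1 and of Scrt2, which is the Srxn1 peak. On the RA side the widest was that of Tor1a, at 1500 bp, and the peaks at 1050 bp included those of Fam72a, Tmem62, Ap5s1, Ncoa3 and Znf512b.

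The first 399 bases of each of the 93 peaks were compared for composition. The median GC content was 55.9% (51.1 to 58.9, order-statistic interval, n = 56) where CIH was higher and 52.9% (46.1 to 56.9, n = 37) where RA was higher, and the intervals overlapped. CpG dinucleotides numbered 15 per peak at the median in CIH and 11 in RA. The order was the other way in the 382 other peaks of the table with as many bases held, where the median GC content was 51.9% for 179 peaks higher in CIH and 54.1% for 203 higher in RA, with 12 and 16 CpG. Over both directions their median GC content was 52.9%. The ratio of observed to expected CpG, which is near 1 in unmethylated promoters and low in most of the mouse genome, was above 1 in 5 of 56 peaks higher in CIH and in 1 of 37 higher in RA. The 5 were paired with Swt1, Naif1/Fam102a, Pnrc1, Gm12434/Nr4a3 and Mecr/Srsf4, and the 1 with Ncoa3, at a ratio of 1.08. Fam72a and Armc1, both higher in RA, had no CG at all, as the Armc1 window above shows.

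**Figure D5:**
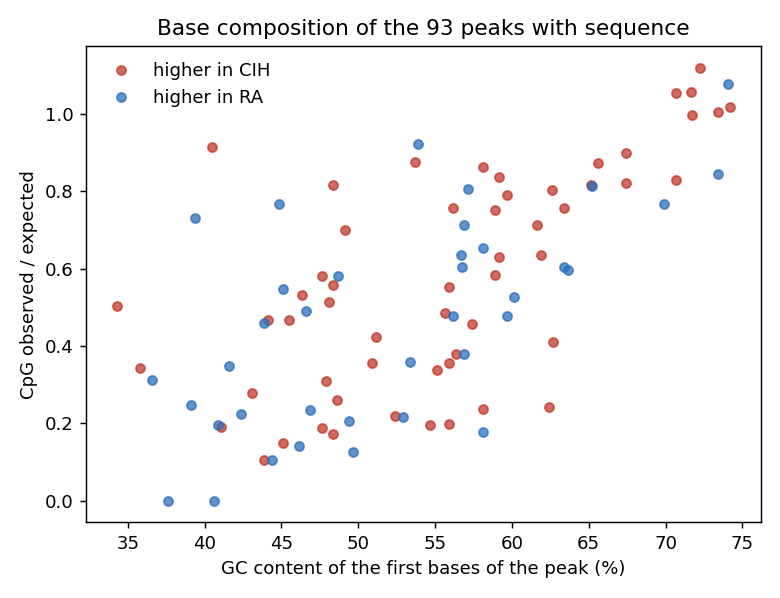
Ratio of observed to expected CpG (y axis) against GC content in percent (x axis) in the first bases of the 93 peaks with sequence, 1 point per peak, red for higher in CIH and blue for higher in RA. Both colours span the range, with 5 red points and 1 blue point above a ratio of 1, and 2 blue points at 0.

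Motif letters were counted on both strands of the same bases, beside the 382 other table peaks with as many bases held and 32851 RefSeq promoters of 300 bases, which are shorter. AP-1 letters (TGANTCA) were in 10 of 56 peaks higher in CIH (17.9%, 8.91 to 30.4) and 3 of 37 higher in RA (8.11%, 1.70 to 21.9), in 8.94% and 8.87% of the other table peaks of each direction and in 7.81% of promoters. Among the 10, only the Srxn1 peak held 2 AP-1 matches, the pair shown above, and the other CIH matches were in peaks paired with Esf1, Ptpn1, Fat4, Ssr3, Mex3a, Ube2q1, Ndufs5, Trappc3 and Arhgef10l. In RA they were in the peak that holds the Prnp start and in those paired with Psma5 and with Gm13497 and 1700057H21Rik. The E-box CACGTG, letters that MYC and USF proteins bind, was in 10 of 56 peaks higher in CIH (17.9%) and in 1 of 37 that were higher in RA (2.70%, 0.0684 to 14.2), against 7.82% and 8.87% of the other table peaks and 7.15% of promoters. It was found in the peaks of Hnrnpu, Pdia3, Trmt6, Mef2d, Rusc1 and Scamp3 among others, and in RA in that of Dsn1.

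The hypoxia response core ACGTG, which lies inside the E-box letters, was in 20 peaks higher in CIH (35.7%, 23.4 to 49.6) and in 7 that were higher in RA (18.9%, 7.96 to 35.2), against 27.4% and 28.1% of the other table peaks. Jun, Klf4, Nr4a3 and Id3 were among the 20, and the Mga promoter shown above was among the 7. The peak paired with Eno1, from the hypoxia and vasoactive list, had no match in the bases held. RefSeq promoters had the core in 19.6% of cases. ETS letters (CCGGAAG) were in 12.5% and 2.70%, with the opposite order in the other table peaks, 4.47% and 7.39%. GC boxes (GGGCGG) were in 41.1% and 32.4%, against 31.8% and 36.9% there. TATAAA was in 5.36% of the CIH group and in 18.9% of the RA group, including Postn and the Prnp peak, against 14.5% and 11.3% of the other table peaks. CCAAT was in 39.3% and 45.9%, against 41.9% and 38.4%. The PU.1 letters GAGGAAGT were in 3 of 56 peaks higher in CIH, those of Slc35c1, Scamp3 and Pnrc1. They were in none of 37 higher in RA, where the exact interval reaches 9.49%. The other table peaks had the opposite order, with 2 of 179 for CIH and 5 of 203 for RA. RefSeq promoters had these letters in 1052 of 32851 cases. The cyclic AMP element TGACGTCA was in 1 peak of each direction, the NRF1 letters GCGCATGCG in 1 peak, and the NF-kB letters GGGAATTTC in none of the 93. Over the 382 other table peaks the shares of these were 1.57%, 0.524% and 0.785%. For each motif the intervals of CIH and RA overlapped.

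A differential peak of the repressive mark met this class in 1 place. The H3K27me3 list holds only the 146 peaks that differed between the exposures, 48.05 kb in all. Places where the mark was present at a similar level in both are not in it, so the overlap does not measure how much H3K27me3 these regions carried. At chr13:29280401-29281650, a peak higher in CIH, an H3K27me3 peak of 350 bp that was also higher in CIH lay wholly inside, starting 800 bp from the left edge. The study's H3K27me3 table pairs it with Cdkal1, a tRNA modifying enzyme gene. None of the 230 peaks higher in RA overlapped an H3K27me3 peak, which allows a share of up to 1.59% by the exact interval. Over all H3K9ac peaks 35 of 20943 did (0.167%), and among the other standalone peaks 30 of 12129. The 100 bases at chr13:29281351-29281450, in the middle of the H3K27me3 peak, have a GC content of 37.0% and 1 CG, in capitals.
Cdkal1 window: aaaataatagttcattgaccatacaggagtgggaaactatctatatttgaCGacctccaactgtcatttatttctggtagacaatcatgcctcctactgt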

How the data were processed

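H3K9ac and H3K27me3 were profiled by ChIP-seq in 4 libraries, 1 per mark and exposure, with no input library. The submitters' processing notes name MACS2 2.1.0, bedtools 2.23.0, Picard 1.121, SAMtools 1.2, BWA 0.7.12 and Trimmomatic 0.32, and the build mm9. For each mark the authors deposited a peak list that gives a position, a name, a sign and a score, which is 1000 in every row. A minus sign was read as higher in CIH, since all 483 peaks held from the study's table matched the list in name, position and direction. Total counts per library were not used here, so the depth behind each peak is unknown. The peaks, gene lists and motifs were chosen with earlier results of these data known.

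Widths, spacing and overlaps (at least 1 bp) were computed in Python 3.11.15 with pandas 2.3.3 and scipy 1.17.1, with code tested on simulated data. Intervals of shares are exact (Clopper-Pearson, 95%). Gene names, directions and sequences, but no values, came from the first 742 rows of the study's tables. A sequence held 399 bases (400 were planned), with masked bases in 25 of 93, where motifs and starts are hidden. GC and CpG were counted over unmasked bases. RefSeq starts were placed by exact matches of 60 promoter bases (GRCm38.p6, whose coordinates are not used) on the same chromosome, and 125 of 128 gene symbols matched RefSeq. Genes were named if they were on a list, were higher in RA with a known role, had 2 or more peaks, were the widest, narrowest or most isolated, or overlapped H3K27me3. Swt1, Ncoa3, Fam72a and genes named for a motif or a start were chosen after their values were seen. Some items of the gene lists are counted but not reported by name here.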

Additional observations from a re-analysis of the deposited data

How the results depend on the processing

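The share of peaks higher in CIH was 81.5% and lay between 79.5% and 81.5% for the narrower part of the class, for peaks with no other within 500 or 1000 bp, with touching peaks added, on autosomes only, and after neighbours of 1 direction within 500 bp were joined, which was chosen after seeing the data. In the wider part, the 5 widest steps from 1300 bp, it was 84.6% of 467 peaks, for which the cause was not tested. Nearest peaks of the same direction were 49.6% at any distance, 49.9% within 100 kb and 55.2% within 10 kb, where fewer peaks enter and those within 500 bp weigh more. The H3K27me3 overlap stayed at 1 peak with at least 100 bp shared or within 1000 bp. Over the first 200 bases the median GC content was 54.7% in CIH and 49.0% in RA. A stricter peak threshold could not be applied because the score is 1000 throughout and the lists give no p-value. No paired analysis was possible because each group has 1 sample, and for the same reason no replicate could be left out. Neither input nor depth per library was analysed here.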
